A study of Homo sapiens with 12 samples.

Results

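Collagen chain genes were taken as every protein-coding gene whose symbol is COL, a number, A and a number, which gave 44 genes among 46350 named genes, 19729 of them protein-coding. Their RNA was counted in 12 poly-A RNA sequencing libraries of human ovarian cancer cells, with 3 libraries in each of 4 groups. The groups were SKOV3 cells, labelled cisplatin-sensitive, SKOV3 cells given paeonol (SKOV3_Pae), SKOV3/DDP cells, labelled cisplatin-resistant, and SKOV3/DDP cells given paeonol (SKOV3/DDP_Pae). SKOV3 is an established line from a human ovarian carcinoma and SKOV3/DDP is 1 cisplatin-resistant line named after it, so that a difference between the lines belongs to this pair. Paeonol (PAE) is a phenolic compound of peony root, and the labels give neither its dose nor the time of treatment. The sources name triplicates of both a biological and an experimental kind without saying which the 3 libraries of a group are, so that p-values measure the spread between these libraries, which may be technical.

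Collagens are secreted or membrane-bound proteins in which 3 alpha chains wind into a rope-like helix, and each chain is the product of its own gene. Fibrillar chains build the fibres of connective tissue, network chains build the sheet of basement membranes, and beaded filaments, anchoring fibrils, fibril-associated chains (FACIT), membrane-spanning chains and multiplexins link these structures to each other and to cells. In ovarian tumours fibroblasts of the stroma make most of the fibrillar collagen, while carcinoma cells are known for basement membrane and membrane-bound chains. A helix needs a defined set of partners, such as alpha 1 and alpha 2 of type IV, so the chains are described below by class and with their partners.

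The libraries held between 14572701 and 18240553 counts in named genes. Levels are given as normalised CPM, the counts put on a common library total that was scaled by the TMM factor of edgeR, and ± gives the SD of n = 3 libraries. The 3 untreated SKOV3 libraries stood apart from the other 9, with 17951 to 18240 named genes with a count against 21469 to 23194, and with TMM factors of 0.644 to 0.675 against 0.975 to 1.23. Across 15683 genes, a gene's deviation from its mean over the libraries correlated with the GC content of its transcripts at Spearman's rho of 0.686 to 0.698 in untreated SKOV3 and of -0.561 to -0.339 in the other libraries. The collagen chain genes that entered the tests were GC-rich, with a median of 61.1% against 49.0% over all tested genes, and 26 of the 29 lay above that median. For this reason the comparisons that rest on untreated SKOV3 were also made with each library's trend along GC and gene length taken out by offsets in the edgeR fit.

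Markers of the lines went partly against a pair of ovarian lines that differ only in resistance. The summed level of 6 intestinal markers was 531 to 576 CPM in SKOV3/DDP and at most 0.886 CPM in untreated SKOV3, where CDX1, CDX2, VIL1, CDH17 and GPA33 had no count. Keratin 7 stood at a mean of 3603 CPM in SKOV3 and 1.22 CPM in SKOV3/DDP, and EPCAM at 1.26 and 288 CPM. Of the 9 epithelial markers, 7 were higher and 1 lower in SKOV3/DDP by edgeR, against 46.1% and 38.5% of all genes tested. Their sum was 8080 to 8869 CPM in SKOV3 and 10830 to 13120 CPM in SKOV3/DDP. Of 10 fibroblast markers, 4 had a count in every library of each untreated line, but not the same 4. They were PDGFRA, PDGFRB, DCN and FBLN1 in SKOV3 and PDGFRB, FAP, FBLN1 and TCF21 in SKOV3/DDP. LUM and POSTN were at 0 in both lines, and the sum in SKOV3 (446 to 591 CPM) was almost all FBLN1. The sum of 6 Mullerian markers was 178 to 184 CPM in SKOV3 and 340 to 435 CPM in SKOV3/DDP, most of it MSLN (means of 149 and 388 CPM). PAX8 (29.7 and 4.12 CPM) and MUC16 (2.08 and 0.390 CPM) went the other way. Of 3 Mullerian markers tested, 1 was higher and 2 lower in SKOV3/DDP by edgeR, against the same shares of all genes. The 5 endothelial markers summed to 3.22 to 5.45 CPM in SKOV3, 5.36 to 10.6 in SKOV3_Pae, 1.58 to 2.25 in SKOV3/DDP and 0.657 to 0.714 in SKOV3/DDP_Pae. Most of that was PECAM1 in both SKOV3 groups (means of 4.29 and 7.65 CPM), and CDH5 and KDR had no count in any group. Whether SKOV3/DDP and SKOV3 come from the same cells was not tested, and the groups are called by their labels. What part these markers have in the collagen differences was not tested either.

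The family was expressed in part. By a count in each of the 3 libraries of a group, 25 of the 44 genes were detected in SKOV3, 28 in SKOV3_Pae, 23 in SKOV3/DDP and 26 in SKOV3/DDP_Pae, and 19 were detected in all 4 groups. A mean of at least 1 CPM of the library total was reached by 19, 23, 15 and 14 genes respectively. By a count in all 3 libraries COL10A1, COL4A1, COL4A2 and COL6A3 were detected in both SKOV3/DDP groups and in neither SKOV3 group, while COL4A5, COL15A1 and COL26A1 were detected in both SKOV3 groups and in neither SKOV3/DDP group. By contrast, 16 genes stayed below 1 CPM in every group, with no more than 19 counts in any library. They were COL1A2, the cartilage chains COL2A1, COL9A1, COL11A1 and COL11A2, the FACIT genes COL14A1, COL19A1, COL21A1 and COL22A1, and COL24A1, COL23A1, COL25A1, COL28A1, COL6A5, COL6A6 and COL8A1. COL1A2, the partner of COL1A1 in type I collagen, had no count in any of the 12 libraries, which allows at most 0.0650 CPM of the library total in any group by a limit of 3 counts over its 3 libraries (limits and counting intervals cover counting error only).

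**Figure D1:**
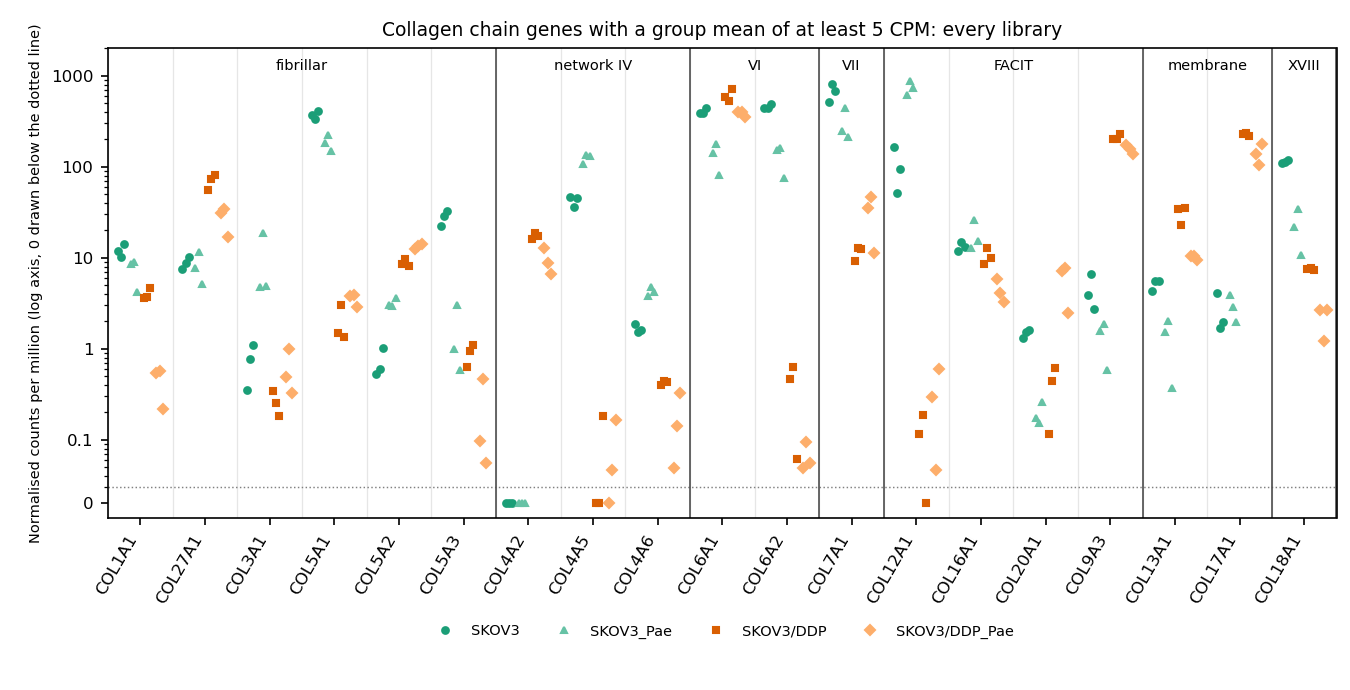
Normalised CPM (log axis) of the 19 collagen chain genes whose highest group mean was at least 5 CPM of the library total, ordered by class, with 1 point for each of the 12 libraries and a zero drawn below the dotted line. COL4A2 sits at 0 in all 6 SKOV3 and SKOV3_Pae libraries, COL6A1 is high in all 4 groups, and COL6A2, COL12A1 and COL4A5 lie below 1 CPM in every SKOV3/DDP and SKOV3/DDP_Pae library.

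The summed level of the 44 genes was 1389, 1461 and 1604 CPM of the library total in SKOV3, 1807, 2604 and 1788 in SKOV3_Pae, 1299, 1119 and 1476 in SKOV3/DDP and 1009, 975 and 856 in SKOV3/DDP_Pae. The direction with PAE in SKOV3 turned with the scale: the mean went from 1484 ± 109.8 to 2066 ± 466 by library total and from 2257 ± 126 to 1704 ± 375 by TMM-scaled CPM. In SKOV3/DDP it went down on both scales, from 1298 ± 179 to 947 ± 80.4 and from 1225 ± 107 to 795 ± 48.8. Shares of the classes within the family do not depend on that scale, but they carry the GC trend of the untreated SKOV3 libraries. Beaded filament chains held 38.3 ± 1.28% of the family's counts in SKOV3, 15.3 ± 4.33% in SKOV3_Pae, 50.0 ± 3.09% in SKOV3/DDP and 48.3 ± 1.17% in SKOV3/DDP_Pae. FACIT chains held 5.63 ± 2.70% in SKOV3 and 44.9 ± 6.13% in SKOV3_Pae, and every SKOV3_Pae library lay above every other library. Membrane-spanning chains took 21.2 ± 2.02% in SKOV3/DDP and 0.351 ± 0.0399% in SKOV3, the anchoring fibril gene COL7A1 0.936 ± 0.167% and 29.5 ± 5.72%.

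**Figure D2:**
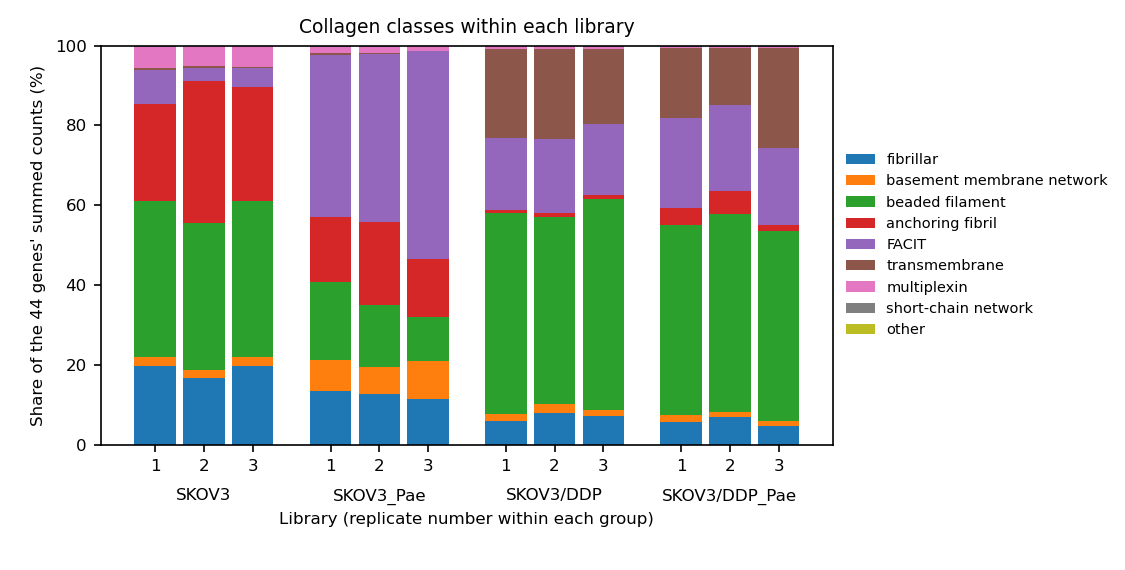
Share of the summed counts of the 44 collagen chain genes held by each of 9 classes, as 1 stacked bar per library with the replicate number below it. The FACIT band is widest in the 3 SKOV3_Pae bars, the membrane-spanning band is wide only in the 6 SKOV3/DDP and SKOV3/DDP_Pae bars, and the anchoring fibril band is widest in SKOV3.

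Per kilobase of the deposited gene length, the order of the chains differed between the lines. COL6A2 (96.9 ± 5.58 CPM per kb) and COL6A1 (96.8 ± 7.13) led in SKOV3 and overlapped, followed by COL7A1 at 69.2 ± 15.1, COL5A1 at 34.5 ± 3.68 and COL18A1 at 16.8 ± 0.751, each of which lay apart from its neighbours. In SKOV3/DDP the order was COL6A1 at 145 ± 21.3, COL9A3 at 78.3 ± 6.15 and COL17A1 at 40.6 ± 1.34 CPM per kb, without overlap. In SKOV3_Pae COL12A1 was first at 55.9 ± 9.84 CPM per kb, above COL6A1 at 31.8 ± 11.4, COL7A1 at 31.3 ± 12.7 and COL6A2 at 27.3 ± 9.96, which overlapped. The first 3 genes of SKOV3/DDP were also the first 3 of SKOV3/DDP_Pae. With the longest GENCODE transcript as the length, the 5 genes named for SKOV3 kept their ranks and COL6A2 moved from rank 4 to rank 2 in SKOV3_Pae. The means of COL6A2 and COL6A1 in SKOV3 then stood further apart, at 132 and 96.0 CPM per kb.

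SKOV3/DDP was set against SKOV3 in an edgeR quasi-likelihood fit of the 6 untreated libraries, with p-values adjusted over 15323 genes (Benjamini-Hochberg), and a gene was called at an adjusted p under 0.05. Of the 26 collagen chain genes with enough counts, 10 were higher in SKOV3/DDP and 15 lower, and only COL16A1 was not called. Of the 10, COL10A1, COL4A1, COL4A2 and COL6A3 had no count in SKOV3. They entered the test through SKOV3/DDP alone and could only be called higher. COL12A1, COL15A1, COL20A1, COL26A1, COL4A4, COL4A5, COL4A6, COL6A2, COL8A2 and COL9A2 were kept by the filter through SKOV3 alone in the same way. COL5A2 was kept through SKOV3/DDP alone. The direction of such calls follows from the filter, so the split of 10 and 15 and the median below do not measure a tilt of the family. Over all genes tested, 46.1% were called higher and 38.5% lower, so that most genes of any kind were called. The median log2 fold change was -1.83 over the members, also with the 4 genes at 0 in SKOV3 put at their lower bounds, and 0.42 over all genes. With the GC and length trend removed, 11 members were higher and 11 lower, with a median of -0.99 against 0.13. Here and below, the share of all genes called was taken in the first fit only. Counts under other settings have no such share beside them. COL16A1 was then called higher, COL1A1, COL20A1, COL26A1 and COL9A2 were no longer called, and the other 21 members kept call and direction. Among these 21, COL9A3 (to 7.92), COL6A1 (to 2.49), COL6A2 (to -8.35) and COL13A1 (to 4.35) moved furthest on the log2 scale. Scaling by library size alone moved the median of all genes from 0.42 to 1.16, and 10 members were then higher and 13 lower. Between the lines under PAE, from a fit of all 12 libraries over 17133 genes, 11 of 29 members were higher in SKOV3/DDP_Pae and 17 lower, against 27.5% and 27.1% of all genes. COL4A1, COL4A2 and COL6A3, at 0 in SKOV3_Pae, could only be called higher there. COL10A1 would not have passed the filter on the SKOV3 and SKOV3_Pae libraries alone. Of the 17 lower, COL12A1, COL15A1, COL26A1, COL3A1, COL4A3, COL4A4, COL4A5, COL4A6, COL6A2 and COL8A2 would not have passed on the SKOV3/DDP and SKOV3/DDP_Pae libraries alone. The direction of these calls follows from the filter too. The median there was -2.42 against 0.06 over all genes, and removing the trend left the counts at 11 and 17. The comparisons set different libraries against each other. Of 26 members tested in both, 24 were called in both, 23 of them in the same direction, 10 higher and 13 lower in SKOV3/DDP, and COL20A1 in opposite directions.

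**Figure D3:**
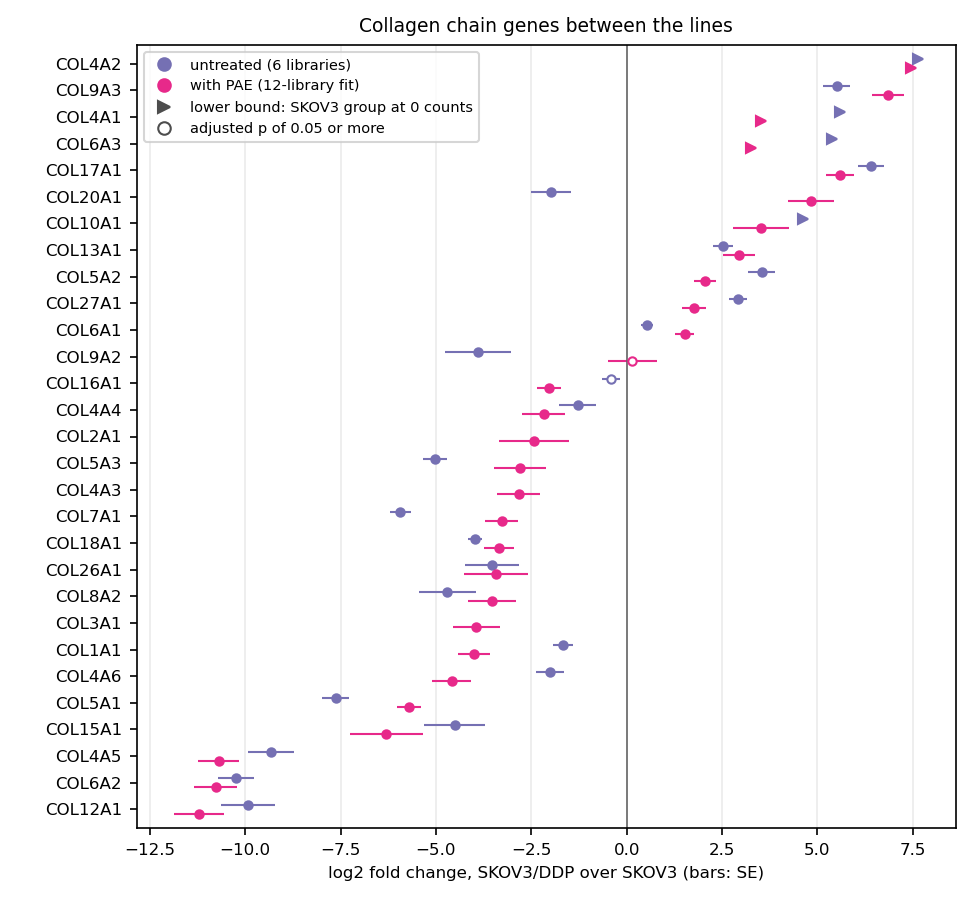
Log2 fold change of SKOV3/DDP over SKOV3 (bars give the SE) for the collagen chain genes tested, untreated and with PAE, where triangles are lower bounds for genes with no count in the SKOV3 group and open points have an adjusted p of 0.05 or more. COL12A1, COL6A2 and COL4A5 lie at or below -9.33 in both comparisons, COL9A3 and COL17A1 lie at or above 5.51 in both, and COL20A1 changes side.

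Type IV collagen is the sheet of the basement membrane, and the lines expressed different chains of it. COL4A1 and COL4A2, the ubiquitous pair, had no count in any of the 6 SKOV3 or SKOV3_Pae libraries. In SKOV3/DDP the counts were 75, 86 and 44 for COL4A1 and 276, 295 and 284 for COL4A2, and with PAE 8, 22 and 7 and 262, 185 and 121. Against the limit of 3 counts over the SKOV3 group, COL4A2 was at least 200.4-fold higher and COL4A1 at least 48.0-fold higher in SKOV3/DDP. No p-value is given, since both genes entered the test through SKOV3/DDP alone and could only be called higher. COL4A5, a chain of a second type IV network, showed the reverse, with 46.2, 36.5 and 45.9 CPM in SKOV3 and 108, 134 and 129.8 CPM in SKOV3_Pae. In SKOV3/DDP it had 0, 0 and 3 counts, and 0, 1 and 3 with PAE. SKOV3 was 707-fold higher than SKOV3/DDP by the ratio of counts (95% exact counting interval, 242 to 3434), and the groups did not overlap. Its partner COL4A6 was below it in both SKOV3 groups, with 1.86, 1.53 and 1.61 CPM in SKOV3, 3.77, 4.77 and 4.15 in SKOV3_Pae, 0.403, 0.441 and 0.428 in SKOV3/DDP and 0.0490, 0.141 and 0.330 in SKOV3/DDP_Pae (log2 fold change between the untreated lines, -2.01 ± 0.36). No p-value is given for COL4A6, which passed the filter of that fit through SKOV3 alone. COL4A3 and COL4A4, the chains of the kidney and lung networks, had group means between 0.225 and 3.42 CPM and between 0.251 and 1.16 CPM, and COL4A4 overlaps the more abundant RHBDD1 on the other strand (26.5 CPM of the library total on average).

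All 6 type IV genes stand as head-to-head pairs whose starts face each other across a short shared promoter, and these stretches are shown because COL4A1 and COL4A2 were at 0 together in SKOV3 while the partners of the other pairs were not. COL4A1 and COL4A2 are 126 bases apart, COL4A4 and COL4A3 106 bases and COL4A6 and COL4A5 344 bases, of which the 250 next to COL4A5 are given. The sequences run 5′ to 3′ on the forward strand of GRCh38.p14 as RefSeq gives them, and capitals mark the GC box GGGCGG and the CCAAT box (CCAAT), searched on both strands.
COL4A1 and COL4A2, chr13:110307158-110307283: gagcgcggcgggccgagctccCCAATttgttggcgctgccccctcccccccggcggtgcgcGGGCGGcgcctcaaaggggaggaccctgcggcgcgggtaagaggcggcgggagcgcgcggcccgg
COL4A4 and COL4A3, chr2:227164483-227164588: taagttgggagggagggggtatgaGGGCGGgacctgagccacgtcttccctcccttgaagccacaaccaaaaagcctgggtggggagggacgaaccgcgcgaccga
COL4A5, chrX:108439588-108439837: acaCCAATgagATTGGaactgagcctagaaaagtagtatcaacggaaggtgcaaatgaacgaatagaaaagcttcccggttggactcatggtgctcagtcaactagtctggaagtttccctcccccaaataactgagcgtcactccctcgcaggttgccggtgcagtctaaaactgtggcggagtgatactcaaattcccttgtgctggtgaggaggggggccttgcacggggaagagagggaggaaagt
The stretch between COL4A1 and COL4A2 held 20 CpG dinucleotides at a GC content of 80.2%, while the 250 bases before COL4A5 held 8 at 51.2% with 2 CCAAT boxes and no GC box. Of the 44 genes, 32 had an entry of 250 bases before and some after a start, in 44 windows in all. A GC box stood in 54.5% of these 44 windows and a CCAAT box in 31.8%, against 45.0% and 34.6% of all 35116 windows. Within the pairs the partners were not at 1 level: per kilobase of the deposited gene length, COL4A1 reached 0.064 to 0.121 of COL4A2 over the SKOV3/DDP libraries and 0.013 to 0.049 with PAE, and COL4A5 stood at 27.7 to 33.1 times COL4A6 in SKOV3. The size of the first gap depends on the length used, 15595 bases for COL4A1 against 6616 in GENCODE. By the GENCODE length COL4A1 and COL4A2 averaged 0.627 and 2.66 CPM per kb in SKOV3/DDP, and 0.0912 and 1.45 with PAE.

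Type VI collagen forms beaded filaments around cells from alpha 1, alpha 2 and one more chain, usually alpha 3. COL6A1 was high in all 4 groups, with 387, 392 and 441 CPM in SKOV3, 143, 176 and 81.8 in SKOV3_Pae, 590.4, 532 and 708 in SKOV3/DDP and 401, 394 and 355 in SKOV3/DDP_Pae. COL6A2 was near it in SKOV3 with 443, 444 and 489 CPM and followed it in SKOV3_Pae with 154, 159 and 75.1 CPM, but had 8, 10 and 1 counts in SKOV3/DDP and 1, 2 and 1 in SKOV3/DDP_Pae. The log2 fold change of COL6A2 between the lines was -10.25 ± 0.47 untreated and -10.77 ± 0.56 with PAE. No p-value is given, since COL6A2 passed the filter through the SKOV3 groups alone. Per kilobase of the deposited gene length, the ratio of COL6A1 to COL6A2 was 0.984 to 1.02 in SKOV3 and 950.5 to 13030 in SKOV3/DDP. The near-level ratio in SKOV3 rests on that length. With the longest GENCODE transcript the SKOV3 means were 96.0 CPM per kb for COL6A1 and 132 for COL6A2. COL6A3 went the other way, with no count in any SKOV3 or SKOV3_Pae library and 45, 58 and 74 counts in SKOV3/DDP, at least 41.5-fold higher. It too entered the test through SKOV3/DDP alone, so no p-value is given. No group had all of COL6A1, COL6A2 and COL6A3 at a mean of 1 CPM or more. For COL6A1 itself the untreated difference was small, 0.52 ± 0.16 (adjusted p = 0.013), and it became 2.49 with the trend removed.

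COL6A1 (chr21:45981770-46005048) and COL6A2 (chr21:46098071-46132849) lie on 1 strand of chromosome 21 with 93022 bases between them. The 209 bases before the start of COL6A2 are shown because this gene alone of the pair was near 0 in SKOV3/DDP. They had a GC content of 79.9% with 21 CpG dinucleotides and 2 GC boxes, in capitals.
COL6A2, chr21:46097862-46098070, forward strand: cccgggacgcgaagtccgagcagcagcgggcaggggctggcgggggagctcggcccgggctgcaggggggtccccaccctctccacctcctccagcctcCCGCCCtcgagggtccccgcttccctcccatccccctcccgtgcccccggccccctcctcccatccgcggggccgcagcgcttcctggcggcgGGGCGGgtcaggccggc

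The fibrillar class, which makes the fibres of stroma, was uneven. COL5A1, which with COL5A2 controls the diameter of type I fibres, was high in SKOV3 with 374, 332 and 411 CPM and stood at 181, 225 and 148 CPM in SKOV3_Pae, 1.5, 3.03 and 1.35 in SKOV3/DDP and 3.82, 3.90 and 2.86 in SKOV3/DDP_Pae. Its partner COL5A2 had 0.532, 0.596 and 1.02 CPM in SKOV3, 3.02, 2.94 and 3.63 in SKOV3_Pae, 8.53, 9.65 and 8.13 in SKOV3/DDP and 12.3, 13.3 and 14.2 in SKOV3/DDP_Pae. Between the untreated lines COL5A1 was lower (-7.63 ± 0.35, adjusted p = 8.3e-07) and COL5A2 higher (3.54 ± 0.35) in SKOV3/DDP, so that COL5A1 was 262 to 455 times COL5A2 per kilobase in SKOV3 and 0.107 to 0.203 times in SKOV3/DDP. No p-value is given for COL5A2, which passed the filter of that fit through SKOV3/DDP alone. COL5A3, the minor alpha 3 chain, was also lower in SKOV3/DDP, with 22.6, 29 and 32.3 CPM in SKOV3, 0.987, 2.99 and 0.578 in SKOV3_Pae, 0.634, 0.946 and 1.10 in SKOV3/DDP and 0.0980, 0.469 and 0.0550 in SKOV3/DDP_Pae (untreated lines -5.02 ± 0.32, adjusted p = 2.2e-06). COL27A1, a fibrillar chain of cartilage, was higher in SKOV3/DDP, with 55.1, 73.7 and 80.3 CPM and 31.2, 34.7 and 16.8 under PAE, against 7.53, 8.77 and 10.1 in SKOV3 and 7.72, 11.5 and 5.20 in SKOV3_Pae (2.92 ± 0.23 untreated, adjusted p = 7.0e-06).

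Type I and III chains, the bulk of stromal collagen, were low. COL1A1 had 12, 10.3 and 14.1 CPM in SKOV3, 8.53, 8.98 and 4.15 in SKOV3_Pae, 3.57, 3.72 and 4.65 in SKOV3/DDP and 0.539, 0.563 and 0.22 in SKOV3/DDP_Pae, while COL1A2 was at 0 counts throughout. Its untreated difference of -1.67 ± 0.26 (adjusted p = 3.4e-04) was -0.06 with the trend removed (adjusted p = 0.84), whereas under PAE it was -4.00 and -4.07. COL3A1 had 0.354, 0.766 and 1.10 CPM in SKOV3, 4.82, 18.5 and 4.94 in SKOV3_Pae, 0.346, 0.252 and 0.183 in SKOV3/DDP and 0.490, 0.986 and 0.330 in SKOV3/DDP_Pae. The SKOV3_Pae libraries were highest and did not overlap any other group, with replicate 2 the highest of the 3.

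Chains that tie epithelia to the matrix were split between the lines. COL7A1, which builds the anchoring fibrils below basement membranes, had 516, 807 and 678 CPM in SKOV3, 249, 442 and 214 in SKOV3_Pae, 9.16, 12.7 and 12.4 in SKOV3/DDP and 35.5, 46.5 and 11.4 in SKOV3/DDP_Pae. COL17A1, the membrane-spanning collagen of hemidesmosomes, had 4.07, 1.70 and 1.95 CPM in SKOV3, 3.89, 2.84 and 1.94 in SKOV3_Pae, 229, 234 and 219 in SKOV3/DDP and 137, 104 and 177 in SKOV3/DDP_Pae. The log2 fold change between the untreated lines was -5.93 ± 0.27 for COL7A1 (adjusted p = 8.0e-07) and 6.41 ± 0.34 for COL17A1 (adjusted p = 1.2e-06), and no library of one line overlapped the other. The 250 bases before the COL17A1 start are shown because COL17A1 was far higher in SKOV3/DDP, with the trend removed too (7.44). On the reverse strand they had a GC content of 40.4% and 1 CpG dinucleotide. Capitals mark the TATA box string TATAAA, held by 11.5% of all windows, and a CCAAT box read on the other strand. The search had no rule on position, and TATAAA lies in the part of the stretch far from the start. Whether it acts as a TATA box was not tested.
COL17A1, chr10:104085881-104086130, reverse strand: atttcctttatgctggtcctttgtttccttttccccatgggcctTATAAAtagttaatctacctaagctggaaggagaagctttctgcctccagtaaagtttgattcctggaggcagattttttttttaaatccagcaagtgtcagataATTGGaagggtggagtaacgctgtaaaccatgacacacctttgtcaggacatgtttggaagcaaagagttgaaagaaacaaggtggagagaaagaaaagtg

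Other membrane-spanning chains and the multiplexins gave smaller levels. COL13A1, found at focal adhesions, had 4.34, 5.53 and 5.50 CPM in SKOV3, 1.51, 2.03 and 0.368 in SKOV3_Pae, 34.7, 23.1 and 35.2 in SKOV3/DDP and 10.3, 10.3 and 9.56 in SKOV3/DDP_Pae (2.53 ± 0.26 between the untreated lines, adjusted p = 3.0e-05). COL18A1, the precursor of endostatin, was highest in SKOV3 with 110.2, 112 and 119.7 CPM, followed by 21.8, 34.4 and 10.6 in SKOV3_Pae, 7.60, 7.76 and 7.34 in SKOV3/DDP and 2.65, 1.22 and 2.69 in SKOV3/DDP_Pae (-3.97 ± 0.18, adjusted p = 8.0e-07). The 4 groups of COL18A1 did not overlap, and the gene shares its locus with SLC19A1 (29.3 CPM of the library total on average, against 28.1). The other multiplexin, COL15A1, had group means of 3.30, 3.2, 0.146 and 0.0313 CPM in the same order of groups, and COL26A1, of no major class, 2.32, 0.975, 0.205 and 0.0856 CPM.

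FACIT chains, which sit on the surface of fibres, held the member with the highest single level. COL12A1 (chr6:75084326-75206262), which bridges type I fibres, had 165, 51.0 and 93.7 CPM in SKOV3 and 608, 867 and 736 CPM in SKOV3_Pae, but 2, 3 and 0 counts in SKOV3/DDP and 6, 1 and 11 counts in SKOV3/DDP_Pae. The log2 fold change between the lines was -9.93 ± 0.72 untreated and -11.21 ± 0.66 with PAE. No p-value is given, since COL12A1 passed the filter through the SKOV3 groups alone. COL9A3, a cartilage chain, showed the reverse, with 3.90, 6.64 and 2.71 CPM in SKOV3, 1.57, 1.88 and 0.578 in SKOV3_Pae, 202, 199.7 and 229 in SKOV3/DDP and 175, 157 and 137 in SKOV3/DDP_Pae (5.51 ± 0.35, adjusted p = 2.2e-06). Its partners did not follow: COL9A1 had at most 3 counts in a library, and COL9A2 had group means of 3.03, 1.23, 0.210 and 1.37 CPM. COL9A3 overlaps TCFL5 on the other strand, which averaged 47.6 CPM of the library total over the 12 libraries against 103.5 for COL9A3. Without the strand of counting, reads of both cannot be told apart.

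The remaining FACIT genes were lower. COL16A1, a FACIT chain of many tissues, had 11.9, 14.8 and 13.1 CPM in SKOV3, 12.8, 26.1 and 15.3 in SKOV3_Pae, 8.64, 12.7 and 9.97 in SKOV3/DDP and 5.88, 4.13 and 3.24 in SKOV3/DDP_Pae. Its groups overlapped between the untreated lines (-0.41 ± 0.24, adjusted p = 0.15), and the value became 1.24 with the trend removed (adjusted p = 0.0028). COL20A1 had 1.33, 1.53 and 1.61 CPM in SKOV3, 0.174, 0.152 and 0.263 in SKOV3_Pae, 0.115, 0.441 and 0.611 in SKOV3/DDP and 7.10, 7.79 and 2.47 in SKOV3/DDP_Pae. Here the SKOV3/DDP_Pae libraries were the highest and the SKOV3 libraries the next, both apart from the rest. Of the short-chain network genes, COL10A1 of hypertrophic cartilage had 0 counts in SKOV3 and 26, 29 and 51 in SKOV3/DDP, where it overlaps the more abundant NT5DC1 on the other strand (27.4 CPM of the library total on average), and COL8A2 had group means of 2.23, 2.74, 0.0786 and 0.228 CPM.

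PAE in SKOV3/DDP set both SKOV3/DDP groups against each other, with the SKOV3 libraries entering only the filter, scaling and spread of the fit. Of 29 members tested, 4 rose and 9 fell, against 11.8% of all genes higher and 14.7% lower, with a median log2 fold change of -0.88 over the members and 0 over all genes. The share that fell (31.0%) was above the background and the share that rose (13.8%) near it. The 9 that fell include COL6A3 and COL4A1, whose direction follows from the filter, as said below. The counts were 4 and 8 with the GC and length trend removed. Only 1 member rose without SKOV3/DDP replicate 1 or without SKOV3/DDP_Pae replicate 1, and 2 without SKOV3/DDP replicate 3 or SKOV3/DDP_Pae replicate 2. Markers moved with PAE here too: all 5 intestinal markers tested fell (sums of 531 to 576 CPM and of 163 to 249 CPM with PAE), as did 5 of 9 epithelial markers (10830 to 13120 and 2450 to 3476 CPM). Of 6 fibroblast markers tested 0 rose and 2 fell, with DCN and LUM at 0 in both groups and sums of 5.69 to 6.80 and of 1.81 to 3.52 CPM. The part of the markers in the collagen values was not tested. COL1A1 fell most (-3.14 ± 0.42, adjusted p = 2.1e-04), followed by COL6A3 (-2.79 ± 0.53) and COL4A1 (-2.75 ± 0.56), each with no overlap between the groups. No p-value is given for COL6A3 and COL4A1, which passed the filter through untreated SKOV3/DDP alone. COL6A2 (-2.40) and COL5A3 (-2.02) fell from untreated means of 0.384 and 0.893 CPM, COL6A2 with overlapping groups, and were not called in 5 and 9 of the 12 fits that left out 1 library. COL18A1 (-1.79 ± 0.38), COL13A1 (-1.62 ± 0.38), COL27A1 (-1.34 ± 0.31) and COL16A1 (-1.24 ± 0.32) fell without overlap and were called in every such fit.

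In the other direction COL20A1 rose from 0.389 to 5.79 CPM (3.88 ± 0.57, adjusted p = 3.8e-04), and every treated library lay above every untreated one. COL9A2 (2.70 ± 0.78, adjusted p = 0.02) and COL7A1 (1.45 ± 0.41, adjusted p = 0.018) also rose, and both were not called in 3 of the 12 fits without 1 library. For COL7A1, replicate 3 with PAE (11.4 CPM) lay inside the untreated range. COL5A1 rose by the test (0.85 ± 0.30, adjusted p = 0.047), but its groups overlapped and 6 of the 12 fits did not call it. COL6A1 (-0.67 ± 0.24, adjusted p = 0.055), COL17A1 (-0.71 ± 0.29, adjusted p = 0.088), COL4A2 (-0.88 ± 0.33, adjusted p = 0.071) and COL9A3 (-0.43 ± 0.31, adjusted p = 0.33) did not pass the test. Neither did COL5A2 (0.60 ± 0.27, adjusted p = 0.12), COL4A6 (-1.29 ± 0.56, adjusted p = 0.11) and COL2A1 (-1.69 ± 0.96, adjusted p = 0.21). The groups of these genes did not overlap. Here and elsewhere the share of all genes without overlap is not given, so non-overlap is a description and adds nothing to the test.

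PAE in SKOV3 was measured against the untreated SKOV3 libraries that stood apart. Of 29 members tested, 7 rose and 9 fell, against 42.6% of all genes higher and 32.7% lower, and COL4A1, COL4A2 and COL6A3 were at 0 on both sides. With the GC and length trend removed, 13 rose and 1 fell, and with scaling by library size alone, which moved the median of all genes from 0.48 to 1.36, 10 rose and 6 fell. The share of all genes called was not taken under either setting, so these counts cannot be set against a background. The median over the members was 0 against 0.48 over all genes, and 0.94 against 0.20 with the trend removed. The median of 0 is the value the fit gave COL4A1, COL4A2 and COL6A3, which had no count to compare. They stay among the 29 members in the counts, medians and correlation of this comparison. Across the 29 members, log2 fold change and GC content correlated at Spearman's rho of -0.76 (-0.78 over all genes tested), against -0.14 for PAE in SKOV3/DDP. These are descriptions over genes that share the same libraries. Among the markers, the sum of the fibroblast list went from 446 to 591 CPM in SKOV3 to 124 to 212 CPM in SKOV3_Pae, with 2 of 6 tested genes higher and 2 lower (1 and 0 with the trend removed). FAP went from a mean of 0.0564 to 5.49 CPM and DCN from 0.144 to 3.05 CPM, while POSTN had no count in either group. The epithelial sum went from 8080 to 8869 CPM to 2595 to 3490 CPM, with 3 of 9 genes higher and 4 lower (5 and 1 with the trend removed). What part these genes have in the collagen values was not tested.

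**Figure D4:**
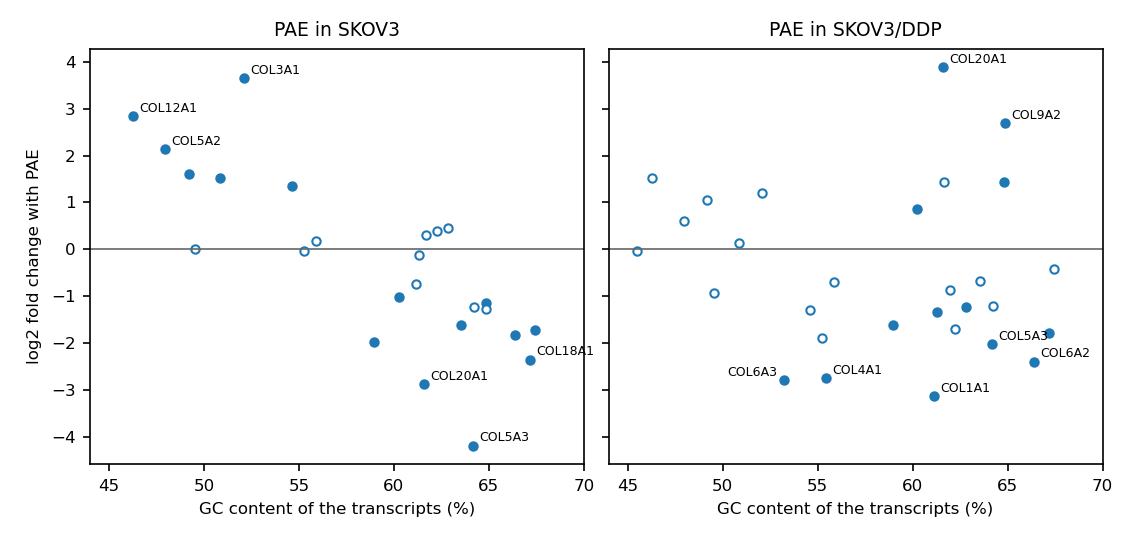
Log2 fold change with PAE against the GC content of the transcripts for the collagen chain genes tested, in SKOV3 (left) and SKOV3/DDP (right), where filled points are called at an adjusted p under 0.05 and genes with a group at 0 counts are left out. In SKOV3 the chains up to 54.6% GC lie at or above 0 and those called from 59.0% GC upward lie below it, while the right panel shows no such order.

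The members that rose with and without the trend removed were COL12A1, COL3A1, COL4A5, COL4A6 and COL5A2. COL12A1 rose from 103 to 737 CPM (2.84 ± 0.44, adjusted p = 2.5e-05), which became 1.12 with the trend removed (adjusted p = 0.0082). COL3A1 rose by 3.65 ± 0.63, and by 3.77 with the trend removed. No p-value is given, since COL3A1 would not have passed the filter without the SKOV3_Pae libraries, where it was highest. COL4A5 rose by 1.53 ± 0.31 and COL4A6 by 1.34 ± 0.42 (adjusted p = 4.0e-04 and 0.0097), and the values became 1.24 and 1.99. COL5A2 rose by 2.15 ± 0.33, or 1.01 with the trend removed. In all 5 genes the groups did not overlap, but they were picked by their calls and no share of all genes without overlap is given. COL4A3 (1.61) was not called with the trend removed (0.72), and COL10A1 rose by the test from 0 to 10 counts over the group, at least 2.08-fold, with overlapping groups. COL5A3 alone fell both ways, with -4.19 ± 0.57 (adjusted p = 7.0e-06) and -2.25 with the trend removed (adjusted p = 0.0017).

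The GC-rich chains gave values that depended on the trend. COL6A1 was -1.61 ± 0.25 (adjusted p = 2.9e-05) and 0.59 with the trend removed (adjusted p = 0.016), and COL9A3 -1.72 and 0.92. COL6A2 (-1.82), COL7A1 (-1.15) and COL5A1 (-1.01) also changed sign, to 0.42, 0.72 and 0.56, and were then not called. COL18A1 (-2.35), COL13A1 (-1.97) and COL20A1 (-2.88) stayed negative, at -0.32, -0.11 and -1.10, but were not called with the trend removed. COL16A1, COL17A1, COL27A1, COL1A1, COL2A1 and COL8A2 were not called in the first fit and were higher with the trend removed, at 2.39, 1.28, 1.58, 1.13, 2.34 and 2.26. For these members the effect of PAE and the GC trend of the untreated libraries cannot be told apart.

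**Figure D5:**
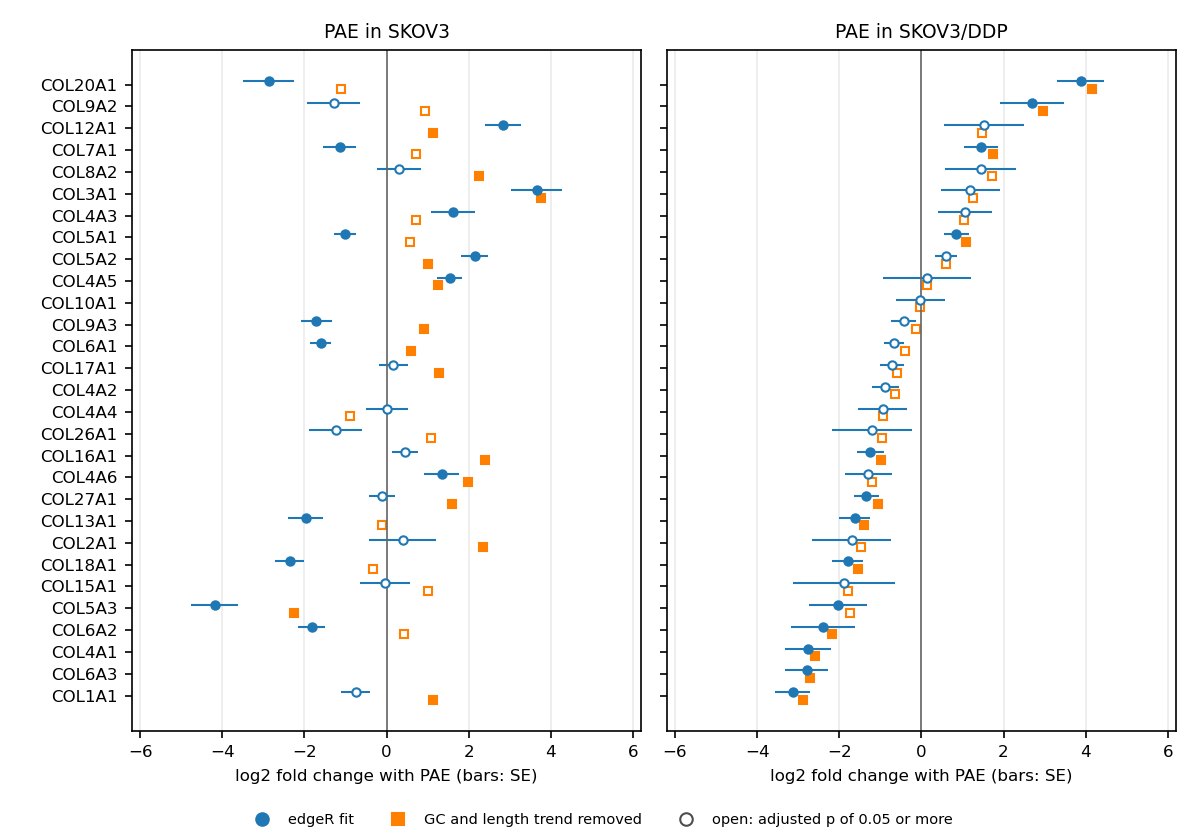
Log2 fold change with PAE in SKOV3 (left) and SKOV3/DDP (right) for the collagen chain genes tested, by the edgeR fit (circles, bars give the SE) and with the GC and length trend removed (squares), where open marks have an adjusted p of 0.05 or more and genes with a group at 0 counts are left out. Circles and squares lie close together on the right, while on the left COL6A1, COL6A2, COL7A1, COL9A3 and COL5A1 lie on opposite sides of 0.

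The effect of PAE differed between the lines in 13 of the 29 members by the interaction term, 6 more positive and 7 more negative in SKOV3/DDP, against 25.5% and 37.4% of all genes. Without SKOV3/DDP_Pae replicate 3 or SKOV3_Pae replicate 2, 4 were more negative. With the trend removed 1 was more positive and 10 more negative, again with no share of all genes taken. COL20A1 kept its difference in both, at 6.76 ± 0.84 (adjusted p = 6.4e-06) and 5.26 with the trend removed (adjusted p = 3.7e-04). COL1A1 (-2.39 ± 0.54), COL4A6 (-2.63 ± 0.71), COL16A1 (-1.69 ± 0.44) and COL27A1 (-1.22 ± 0.44) were more negative in SKOV3/DDP, with adjusted p of 0.0013, 0.0043, 0.0038 and 0.025. With the trend removed the values were -4.02, -3.2, -3.37 and -2.65, all called. COL6A1 and COL9A3 turned from 0.94 and 1.29 to -0.98 and -1.05. No interaction could be had for COL4A1, COL4A2 and COL6A3, which are at 0 in both SKOV3 groups.

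Genes that act on collagen outside the family were counted in 6 lists, which were chosen with earlier results of these data known. Between the untreated lines, 3 of 17 folding and modification genes tested were higher in SKOV3/DDP and 10 lower, and 2 of 11 processing and cross-linking genes were higher and 8 lower, against 46.1% and 38.5% of all genes. Under PAE the counts were 7 and 5 of 17, and 3 and 8 of 12, against 27.5% and 27.1%. In both comparisons FKBP10, a prolyl isomerase that assists collagen folding, was the highest of the folding list (5.86 and 6.53) and PLOD2, a lysyl hydroxylase of collagen, the lowest (-8.09 and -8.84). The lowest cross-linking genes were the lysyl oxidases LOXL2 untreated (-9.41) and LOXL1 under PAE, which averaged 5.95 CPM in SKOV3_Pae and was listed at 0 in SKOV3/DDP_Pae. BMP1, which trims procollagen, was the highest of that list under PAE (0.88). The median log2 fold change was -0.78 untreated and 0.31 under PAE for folding and -1.90 and -1.85 for cross-linking, against 0.42 and 0.06 over all genes. With the trend removed, the untreated counts were 8 and 7 for folding, with a median of 0.54, and 3 and 5 for cross-linking, with a median of -0.75.

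Secretion genes gave 5 higher and 1 lower of 8 between the untreated lines (highest MIA2, 3.40, lowest SEC13, -0.76, neither called with the trend removed at 0.36 and -0.35) and 3 and 1 under PAE (MIA3, 1.11, and SEC23A, -0.71). Collagen receptors gave 2 higher and 3 lower of 7 (ITGB1, 2.28, but -0.09 and not called with the trend removed, and ITGA1, -2.92) and 0 and 3 of 8 (ITGA1, -4.46), the latter by edgeR, against 0 and 4 by DESeq2, 1 and 4 by limma-voom and 1 and 4 without adjustment. Breakdown genes gave 5 and 3 of 8, and 5 and 2, with the collagenase MMP13 highest and the gelatinase MMP2 lowest in both. MMP2 stood at 146 CPM in SKOV3 and 0.282 CPM in SKOV3/DDP, and MMP13 at 0 and 12.4 CPM. Basement membrane partners gave 5 and 7 of 14, and 2 and 7 of 15, and among them the laminin chain LAMA2 was listed at 0 in SKOV3 and averaged 199 CPM in SKOV3/DDP, while LAMA4 was the lowest (-4.51 and -6.99). The medians untreated and under PAE were 2.44 and 0.49 for secretion, -0.81 and -0.87 for receptors, 1.35 and 1.13 for breakdown and -0.72 and -0.95 for basement membrane partners. With the trend removed, the untreated counts higher and lower were 3 and 0, 0 and 2, 5 and 2, and 5 and 5 in the same order, with medians of 0.24, -0.37, 2.05 and -0.005.

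With PAE in SKOV3/DDP, where 11.8% of all genes were called higher and 14.7% lower, the lists gave fewer calls. Of 15 basement membrane partners 0 rose and 8 fell (LAMA2 lowest, -3.09), and of 17 folding genes 1 rose and 5 fell (PLOD2, 2.52, and the collagen chaperone SERPINH1, -2.07). Of 12 cross-linking genes 1 rose and 2 fell (LOX highest, 2.22), of 8 receptors 1 and 3 (DDR1 lowest, -2.19), of 8 breakdown genes 1 and 3 (CTSK, 1.14, and MMP2, from 0.282 to 0 CPM) and of 8 secretion genes 0 and 0 by edgeR, DESeq2 and limma-voom (0 and 1 at an unadjusted p under 0.05 by edgeR). The basement membrane counts were 0 and 8 by all 3 tools and without adjustment, but 0 and 4 with scaling by library size alone. The folding counts were 1 and 7 by DESeq2, 1 and 8 by limma-voom, 1 and 11 without adjustment and 1 and 2 with scaling by library size alone. The medians ran from -0.86 for basement membrane partners to 0.11 for secretion, against 0 over all genes. With PAE in SKOV3, where 42.6% of all genes were called higher and 32.7% lower, the counts were 4 and 12 for folding, 6 and 2 for secretion, 2 and 7 for cross-linking, 4 and 3 for receptors, 2 and 4 for breakdown and 7 and 6 for basement membrane partners. With the trend removed the 6 pairs were 2 and 5, 1 and 1, 1 and 1, 0 and 3, 2 and 2, and 5 and 0. Of the genes at the ends of these lists, the collagen-cleaving protease CTSK (5.73), the receptor DDR1 (-3.81), SEC13 (-1.44), PPIB (-2.70) and PEPD (-2.97) were also called with the trend removed, at 5.15, -2.15, -1.23, -0.53 and -0.75. FKBP14 (3.52), MIA2 (3.26), LOX (2.11), LOXL1 (-2.39), ITGA1 (3.24) and HSPG2 (-2.19) were not, at 0.51, -0.01, -0.78, 0.22, 0.08 and -0.46, nor was LAMA2, which went from 0 to 0.488 CPM. By the interaction term they were 8 and 3 for folding, 2 and 6 for secretion, 4 and 0 for cross-linking (4 and 0 also without adjustment, 4 and 1 by DESeq2, 3 and 1 by limma-voom), 3 and 3 for receptors, 2 and 4 for breakdown and 2 and 5 for basement membrane partners, against 25.5% and 37.4% of all genes. With the trend removed these pairs were 2 and 4, 2 and 1, 2 and 2, 1 and 0, 1 and 4, and 0 and 8.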

How the data were processed

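RNA of 12 libraries, 3 in each of the 4 groups, was prepared with poly-T beads and the NEBNext Ultra kit. The values used are raw counts per gene, deposited by the authors on GRCh38. Per the submitters' processing notes HISAT2 2.0.5, StringTie 1.3.3b, DESeq2 and edgeR were used, and the counting program, its annotation and its use of strand are not given in the sources used here. Loci without a gene name (869, at most 0.678% of counts) were left out.

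The members and the gene lists were chosen with earlier results of these data known. Counts were tested with edgeR 4.0.16 in R 4.3.3 (filterByExpr, TMM, quasi-likelihood, Benjamini-Hochberg over all genes tested). The untreated lines came from a fit of 6 libraries, the other comparisons from 1 fit of 12. Named chains were those with a group mean of at least 5 CPM of the library total, and from each list the extremes called with a group mean of at least 10 CPM. Other chains, the markers and the loci named beside these were chosen after their values were seen. The GC and length trend of each library (splines, GC content from GENCODE transcripts) entered the edgeR fit as offsets. Promoter stretches came from RefSeq. Alternatives were DESeq2 1.42.0, limma 3.58.1 and other filters, scalings and thresholds, a replicate block, and leaving out each library. Shares of all genes called were taken for the first edgeR fit only. Counts of chains or list genes under the alternatives or with the trend removed stand without them. The test was checked on simulated data. Replicates differed beyond sampling noise (chi-square per degree of freedom of 16.6 to 101).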

Additional observations from a re-analysis of the deposited data

Results flagged for a closer look

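The effect of PAE differed between the lines in 11 of the chains described by library, by the interaction term of the edgeR fit (log2, SKOV3/DDP minus SKOV3). It was 6.76 for COL20A1, 2.59 for COL7A1, 1.865 for COL5A1, 1.29 for COL9A3 and 0.94 for COL6A1. It was -1.22 for COL27A1, -1.55 for COL5A2, -1.69 for COL16A1, -2.39 for COL1A1, -2.46 for COL3A1 and -2.63 for COL4A6. All 11 use the untreated SKOV3 libraries. With the GC and length trend removed, COL20A1 (5.26), COL27A1 (-2.65), COL16A1 (-3.37), COL1A1 (-4.02) and COL4A6 (-3.2) kept direction and call. COL7A1 (1.03), COL5A1 (0.53), COL5A2 (-0.42) and COL3A1 (-2.51, adjusted p = 0.057 by edgeR) were not called, and COL6A1 (-0.98) and COL9A3 (-1.05) changed sign. Of the 12 fits without 1 library, 7 did not call COL3A1, 4 COL27A1, 3 COL9A3 and 2 COL6A1. COL3A1 would not have passed the filter without the SKOV3_Pae libraries.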

How the results depend on the processing

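Over the 94 log2 fold changes of the 19 chains described by library, the alternatives other than leaving out 1 library left the call as it was in 706 values (some values that were not called changed sign), gained a call in 27, lost one in 25 and reversed 12. Requiring 10 counts in every library, which tests fewer genes, left 5 members higher and 5 lower between the untreated lines, 0 and 5 with PAE in SKOV3, 2 and 4 with PAE in SKOV3/DDP, 4 and 4 between the lines with PAE, and 2 with a more negative effect in SKOV3/DDP. Under the criteria of p under 0.05 without adjustment and a log2 fold change beyond 2 in size, PAE gave 4 and 3 members in SKOV3, 2 and 5 in SKOV3/DDP and 4 more negative differences. With the GC and length trend removed, PAE in SKOV3 gave 13 and 1, and 1 member had a more positive effect in SKOV3/DDP. Detection at 10 counts in each library gave 14 genes in SKOV3/DDP_Pae, and TMM scaling gave sums of 2257 CPM in SKOV3 and 794.8 CPM in SKOV3/DDP_Pae.

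The reversed values arose with the trend removed, for PAE in SKOV3 in COL6A1 (0.59), COL7A1 (0.72), COL6A2 (0.42), COL5A1 (0.56), COL9A3 (0.92), COL27A1 (1.58, and 0.77 by library size alone) and COL1A1 (1.13), for the difference between lines in COL6A1 (-0.98), COL9A3 (-1.05) and COL18A1 (-1.21), and between the untreated lines in COL16A1 (1.24). The cause was not tested.

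Leaving out 1 library at a time gave 9 to 10 members higher and 14 to 16 lower between the untreated lines, 5 to 7 and 8 to 10 with PAE in SKOV3, 1 to 4 and 7 to 10 with PAE in SKOV3/DDP, 5 to 7 and 4 to 7 for the difference of the effects, and 11 and 16 to 17 between the lines with PAE. Detection was 25 in SKOV3, 28 to 32 in SKOV3_Pae, 26 in SKOV3/DDP and 28 to 29 in SKOV3/DDP_Pae, and the sums were 1425 to 1532, 1797 to 2205, 1209 to 1388 and 915 to 992 CPM. Replicate numbers did not pair the libraries (correlations of same-numbered deviations of -0.171 to 0.117). With the replicate block the counts were 10 and 14 between the untreated lines, 7 and 9 with PAE in SKOV3, 4 and 9 in SKOV3/DDP, 7 and 6 for the difference, and 11 and 17 between the lines with PAE. Depth limits the 15 genes whose counts were too few for the fit of 12 libraries.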

Other observations

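COL5A1-AS1, a non-coding gene antisense to COL5A1 and outside the 44 genes, had 1, 3 and 1 counts in SKOV3 and 29, 11 and 10 in SKOV3_Pae (log2 fold change of 2.61, adjusted p = 0.012 by edgeR), while COL5A1 went from 4224, 3895 and 4853 to 3110, 4437 and 2824 counts. These counts are not scaled, and the comparison rests on the untreated SKOV3 libraries that stood apart. No value with the GC and length trend removed is given for COL5A1-AS1, so PAE and that trend cannot be told apart. Without the strand of counting, reads of such a pair cannot be told apart either.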
